A study of Homo sapiens with 60 samples.

Results

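The FOXO genes described here are 9: the transcription factors FOXO1, FOXO3 and FOXO4, and 6 genes known as their targets or partners, KLHL24, CCNG2, PIK3IP1, SESN1, SESN3 and BCL6. They were taken by symbol from a table of 60675 genes, and all 9 were among the 17368 genes with enough counts to be tested. KLHL24 and CCNG2 were chosen by their higher values in cells given the Polygalae extract, so their values in every comparison with a Polygalae group are given as a description and were not tested. The other 7 genes were chosen as known FOXO genes. On GRCh38 (GENCODE 29), FOXO1 lies on chromosome 13 (40469953 to 40666597, minus strand), FOXO3 on chromosome 6 (108559835 to 108684774, plus) and FOXO4 on chromosome X (71096197 to 71103535, plus). KLHL24 lies on chromosome 3 (183635568 to 183684477, plus), as does BCL6 (187721377 to 187745727, minus), and CCNG2 on chromosome 4 (77157151 to 77433388, plus). PIK3IP1 lies on chromosome 22 (31281593 to 31292534, minus), SESN1 on chromosome 6 (108986437 to 109094819, minus) and SESN3 on chromosome 11 (95165513 to 95232541, minus). All 9 are protein-coding.

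The cells were A549, an established line from a human lung carcinoma, and the measure was RNA sequencing after 24 h. The 20 groups of 3 libraries were 10 µM wortmannin, the water extracts of Polygalae Radix, Aucklandiae Radix, Zizyphi Semen, Schisandrae Fructus, Longan Arillus, and Liriopis seu Ophiopogonis Tuber at 20, 100 and 500 µg/mL each, and a vehicle of dimethyl sulfoxide (DMSO). Each extract group is named below by the first word of the drug and its dose. The sample labels give 0.1% DMSO for Vehicle and the design text gives 2%, and no treated group has a DMSO level in its labels. Doses lowered for toxic extracts are mentioned in the series text, but the sample labels give the same 3 doses for all 6 extracts, and these are used here. All cells are of 1 line, and nothing states that the 3 replicates were separate cultures, so p-values measure the spread between these samples only. The first part of the library names differs between Vehicle, wortmannin and the extracts, which come in pairs (Polygalae with Aucklandiae, Zizyphi with Longan, Schisandrae with Liriopis). In a comparison with Vehicle this library set and the treatment cannot be told apart, while comparisons within an extract or within such a pair stay in 1 set.

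FOXO proteins are forkhead transcription factors that sit at the end of the insulin and growth factor pathway. When phosphoinositide 3-kinase (PI3K) is active, the kinase AKT phosphorylates them, 14-3-3 proteins bind them and they leave the nucleus. When PI3K signalling is low they return to the nucleus and switch on genes of cell cycle arrest, stress defence and metabolism, and some of these genes act back on the pathway. Wortmannin is an inhibitor of PI3K and was the positive control of the study.

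The 9 genes had 16 RefSeq promoter windows, 1 for each start site, which reach from 250 bases before to 50 bases after a start (GRCh38.p14). Both strands were searched for the forkhead motif GTAAACA, which is in 3.42% of all 35116 windows, and for its variant ATAAACA, which is in 4.24% of them. GTAAACA was in 1 window each of FOXO4 and PIK3IP1, and ATAAACA in 1 of the FOXO3 windows. Neither was in a window of FOXO1, KLHL24, CCNG2, SESN1, SESN3 or BCL6. The E-box TCACGTG, searched for after the sequences had been seen, is in 3.71% of all windows and was in 1 window of the 9 genes, that of CCNG2. These matches describe letters in the windows and not binding. The RefSeq windows of KLHL24 and CCNG2 are printed because these genes stood highest in Polygalae cells, and those of FOXO4 and PIK3IP1 because they hold the forkhead motif. Each is given 5′ to 3′ in the direction of transcription up to 30 bases after the start, with the motif in capitals (the forkhead motif in FOXO4 and, on the other strand, in PIK3IP1; the E-box in CCNG2).
KLHL24, chr3:183635373-183635652, plus strand: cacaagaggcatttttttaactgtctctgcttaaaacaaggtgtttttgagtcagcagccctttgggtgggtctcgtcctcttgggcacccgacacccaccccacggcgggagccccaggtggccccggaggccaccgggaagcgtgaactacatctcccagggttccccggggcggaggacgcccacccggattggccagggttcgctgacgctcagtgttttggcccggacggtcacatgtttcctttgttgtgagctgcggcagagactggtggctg
CCNG2, chr4:77156957-77157236, plus strand: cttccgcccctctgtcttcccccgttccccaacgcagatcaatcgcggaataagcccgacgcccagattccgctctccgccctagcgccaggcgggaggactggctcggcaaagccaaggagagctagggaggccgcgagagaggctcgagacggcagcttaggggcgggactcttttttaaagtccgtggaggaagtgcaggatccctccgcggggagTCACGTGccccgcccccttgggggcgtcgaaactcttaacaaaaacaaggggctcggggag
FOXO4, chrX:71095601-71095880, plus strand: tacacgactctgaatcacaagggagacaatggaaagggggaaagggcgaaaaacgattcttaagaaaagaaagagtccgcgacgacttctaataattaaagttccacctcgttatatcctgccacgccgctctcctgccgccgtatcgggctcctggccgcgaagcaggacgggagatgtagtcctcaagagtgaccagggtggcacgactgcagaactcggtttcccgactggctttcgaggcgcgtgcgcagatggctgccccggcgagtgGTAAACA
PIK3IP1, chr22:31292459-31292738, minus strand: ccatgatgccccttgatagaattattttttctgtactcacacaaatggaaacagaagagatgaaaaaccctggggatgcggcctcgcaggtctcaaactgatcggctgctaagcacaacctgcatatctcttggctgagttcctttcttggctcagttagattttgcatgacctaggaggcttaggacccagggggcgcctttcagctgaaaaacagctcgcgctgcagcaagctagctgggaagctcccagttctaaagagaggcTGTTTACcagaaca

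The forkhead motif started 23 bases after the start site in FOXO4 and 16 bases after it in PIK3IP1. The E-box of CCNG2 started at position -31 relative to the start site. KLHL24 had none of the 3 motifs in its window.

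Levels are given as CPM, the count of a gene scaled to a common library size. Expected counts summed to 17.7 to 30.6 M per library. Replicates of a group correlated at 0.985 to 0.993 over genes. Polygalae 20 replicates 1 and 2 stood farthest from their group (root mean square deviation 0.311 and 0.273 on the log2 scale, against a limit of 0.269). The cells carried epithelial markers (KRT8 at a median of 3660 CPM, KRT18 at 2790, CDH1 at 31.6 and EPCAM at 4.86), but the surfactant genes SFTPB, SFTPC and SFTPA1 of alveolar type 2 cells had medians of 0.0759, 0.036 and 0 CPM. The other alveolar type 2 markers, ABCA3 and NAPSA, had medians of 27.0 and 0.91 CPM. Blood markers summed to 0 to 0.114 CPM and endothelial markers to 0 to 0.413 CPM. COL1A1 and COL3A1, collagen genes of fibroblasts, were present at medians of 29 and 5.33 CPM, while PDGFRB, the other fibroblast marker, had a median of 0.164 CPM.

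Per length of merged exons, FOXO3 was the most abundant of the 9 genes in Vehicle cells at 3.31 CPM per kb. BCL6 followed at 2.18, SESN1 at 1.95, FOXO1 at 1.56 and SESN3 at 1.53 CPM per kb. KLHL24, FOXO4 and CCNG2 were lower, at 0.691, 0.668 and 0.631 CPM per kb. PIK3IP1 was the lowest at 0.181 CPM per kb, with a median of 20 counts per library, so its values carry the widest intervals. The fourth FOXO gene, FOXO6, had 0.254 CPM per kb.

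Between the highest and the lowest of the 20 groups, the mean level differed 2.28-fold for KLHL24 and 1.89-fold for CCNG2. The same ratio was 1.67 for PIK3IP1, 1.58 for BCL6, 1.52 for FOXO4, 1.32 for SESN3, 1.31 for FOXO1, 1.23 for SESN1 and 1.13 for FOXO3. Ordered by mean, 19 neighbouring pairs of groups can be formed for each gene, and in most of them the libraries overlapped. The pairs without overlap numbered 3 for KLHL24, 1 each for FOXO1, FOXO4, CCNG2 and BCL6, and 0 for FOXO3, PIK3IP1, SESN1 and SESN3. KLHL24 and CCNG2 were chosen by their higher values with Polygalae, and Polygalae 500 was the highest group of both. Their ratios and pairs thus partly restate that choice. The same figures for all genes are not given here.

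**Figure D1:**
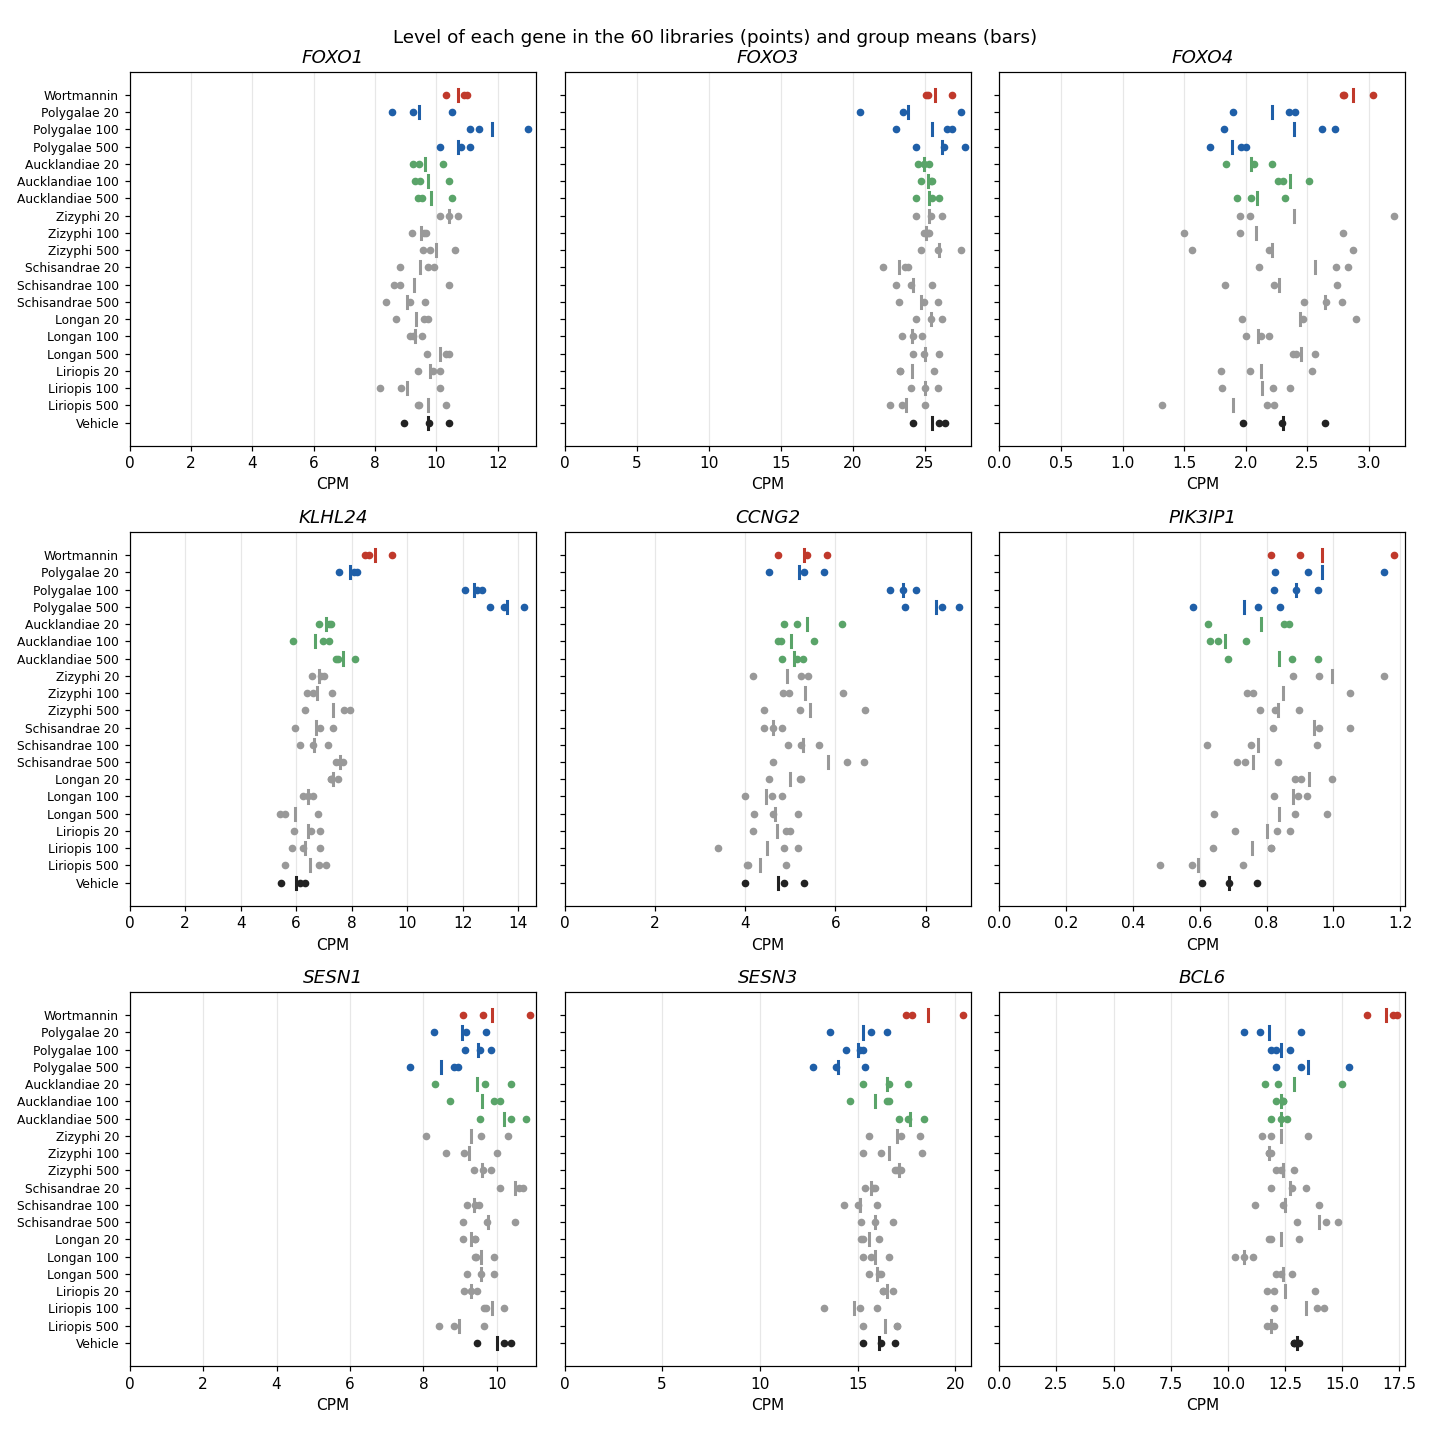
Level in CPM (x axis, from 0) of the 9 genes in the 20 groups (y axis); points are libraries and bars are group means of 3. KLHL24 and CCNG2 stand apart in Polygalae 100 and 500, BCL6 stands apart in Wortmannin, and FOXO3 has group means from 23.2 to 26.2 CPM.

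Wortmannin cells differed from Vehicle cells in 3 of the 9 genes, and all 3 rose: KLHL24, BCL6 and SESN3. Of all genes tested, 37.4% changed in this comparison, 18.0% upward and 19.4% downward. The members' share of 3 in 9 is therefore close to that of all genes. The median log2 fold change was 0.20 for the 9 genes and 0.0079 for all genes. KLHL24 and CCNG2 were chosen on a contrast of Polygalae with the same Vehicle libraries. The count and the median of the 9 genes thus include values that this choice used. BCL6 and SESN3 are among the 7 genes chosen as known FOXO genes. Here and below, p-values came from the quasi-likelihood test of edgeR (two-sided), were adjusted over all genes by the Benjamini-Hochberg method, and passed under 0.05. Counts at an unadjusted p under 0.05 are given below without the share of all genes at that threshold, so they are descriptions only.

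KLHL24 encodes a substrate adaptor of CUL3 ubiquitin ligases that acts on keratins. It had 8.48, 8.61 and 9.45 CPM in Wortmannin cells, against 6.14, 6.32 and 5.46 CPM in Vehicle cells. The groups did not overlap, and the mean was 1.48 times that of Vehicle. The log2 fold change was 0.57 ± 0.088 (SE; adjusted p = 3.9e-07, edgeR), higher in 3 of 3 libraries. In RNA of a whole culture, more RNA per cell and more cells that carry it cannot be told apart. Vehicle had nearly the lowest KLHL24 level of the 20 groups, with only Longan 500 below it (5.98 ± 0.452 CPM in Vehicle and 5.94 ± 0.744 CPM in Longan 500, SD, n = 3 each). Set against the mean of the 15 groups of the other 5 extracts, a choice made after seeing the data, the log2 fold change of KLHL24 in Wortmannin cells was 0.38 (adjusted p = 4.5e-07, edgeR). That reference holds more libraries than Vehicle, and the share of all genes that passed against it is not given here. The Vehicle libraries of the test against Vehicle are also those of the contrast on which KLHL24 was chosen.

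BCL6 is a transcriptional repressor of the BTB and zinc finger family that recruits corepressors to its targets. It had 17.4, 17.2 and 16.1 CPM in Wortmannin cells, against 13.1, 12.9 and 12.9 CPM in Vehicle cells. No library of the other 19 groups reached the lowest Wortmannin library. The log2 fold change was 0.38 ± 0.077 (SE; adjusted p = 4.7e-05, edgeR), and it passed in all 14 alternatives, with adjusted p from 3.7e-10 to 0.00072.

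SESN3 and SESN1 encode sestrins, stress proteins that restrain the growth kinase complex mTORC1. SESN3 had 17.5, 17.8 and 20.4 CPM in Wortmannin cells, against 16.9, 16.2 and 15.3 CPM in Vehicle cells. The lowest Wortmannin library was just above the highest Vehicle library. The log2 fold change was 0.20 ± 0.069 (SE; adjusted p = 0.016, edgeR). Without Vehicle replicate 3 it was 0.16 (adjusted p = 0.099, edgeR) and without Wortmannin replicate 3 it was 0.13 (adjusted p = 0.19, edgeR). SESN1 averaged 9.88 ± 0.949 CPM in Wortmannin cells and 10.0 ± 0.485 CPM in Vehicle cells (SD, n = 3 each), with a 95% interval of the log2 difference from -0.18 to 0.14.

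None of the FOXO factor genes themselves passed. FOXO1 had 10.9, 11 and 10.3 CPM in Wortmannin cells, against 8.93, 10.4 and 9.75 CPM in Vehicle cells, with an adjusted p of 0.14 (edgeR). FOXO4 had 2.8, 3.03 and 2.79 CPM in Wortmannin cells, against 1.98, 2.29 and 2.64 CPM in Vehicle cells. These FOXO4 libraries did not overlap, but the log2 difference of 0.32 had a 95% interval from -0.05 to 0.68 and an adjusted p of 0.18 (edgeR). Against the mean of the other 5 extracts, both genes passed: FOXO1 at 0.16 (adjusted p = 0.012, edgeR) and FOXO4 at 0.36 (adjusted p = 0.018, edgeR). That reference holds more libraries than Vehicle, and the share of all genes that passed against it is not given here.

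FOXO3 averaged 25.7 ± 1.03 CPM in Wortmannin cells and 25.5 ± 1.18 CPM in Vehicle cells (SD, n = 3 each), and the 95% interval of the log2 difference was -0.11 to 0.13. FOXO3 shares most of its coding sequence with FOXO3B, a processed copy on chromosome 17 listed at 5.41 ± 0.408 CPM in Wortmannin cells and 5.82 ± 0.142 CPM in Vehicle cells (SD, n = 3 each). RSEM, the counting program, divides reads between such copies, so the split is uncertain. The sum of both genes was 31.1 ± 0.861 CPM in Wortmannin cells and 31.3 ± 1.3 CPM in Vehicle cells (SD, n = 3 each).

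CCNG2 encodes an atypical cyclin that accompanies cell cycle arrest. It had 5.81, 4.73 and 5.37 CPM in Wortmannin cells, against 5.3, 4.86 and 4.0 CPM in Vehicle cells, which overlap (95% interval of the log2 difference -0.09 to 0.44). PIK3IP1 encodes a membrane protein that inhibits PI3K. It had 0.9, 0.813 and 1.18 CPM in Wortmannin cells, against 0.687, 0.607 and 0.77 CPM in Vehicle cells. The PIK3IP1 libraries did not overlap, but the log2 difference of 0.49 did not pass (adjusted p = 0.11, edgeR).

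**Figure D2:**
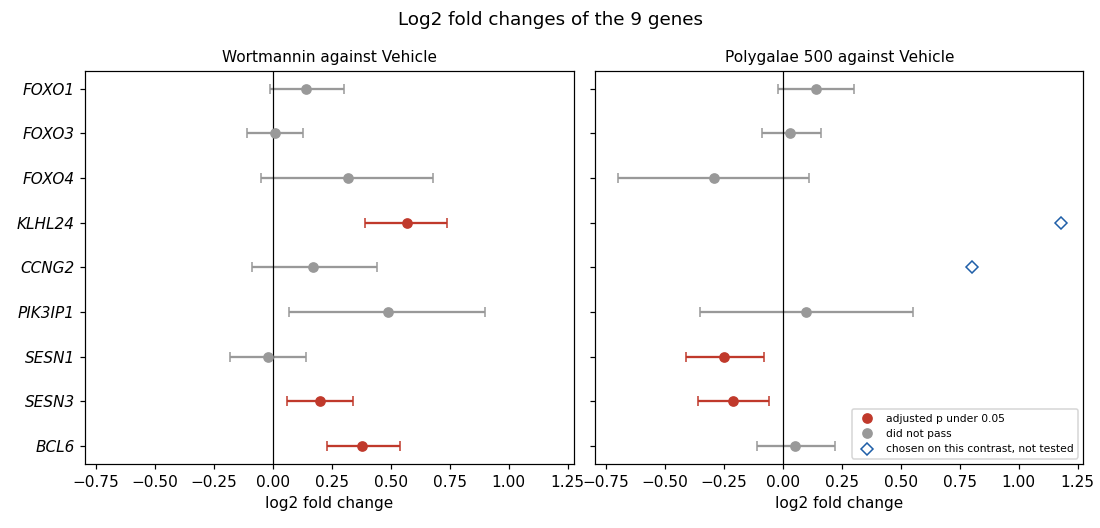
Log2 fold change (x axis) of the 9 genes (y axis) in Wortmannin and in Polygalae 500, each against Vehicle, with 95% intervals; red points passed, grey points did not, and open diamonds mark the genes chosen on the contrast, shown without a test. KLHL24, SESN3 and BCL6 passed in Wortmannin, whereas SESN1 and SESN3 lie below 0 in Polygalae 500.

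Polygalae cells carried the highest KLHL24 and CCNG2 levels of the series, which is the pattern these genes were selected on. KLHL24 had 6.14, 6.32 and 5.46 CPM in Vehicle cells, 7.54, 8.19 and 8.09 CPM at 20 µg/mL, 12.5, 12.7 and 12.1 CPM at 100 µg/mL and 13, 13.5 and 14.2 CPM at 500 µg/mL. Each library at 100 and 500 µg/mL was above all libraries outside the Polygalae groups, while those at 20 µg/mL were above all Vehicle libraries and below all Wortmannin libraries. The ratio of means to Vehicle was 1.33 at 20 µg/mL, 2.08 at 100 µg/mL and 2.27 at 500 µg/mL.

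CCNG2 had 5.3, 4.86 and 4.0 CPM in Vehicle cells, 5.74, 5.31 and 4.52 CPM at 20 µg/mL, 7.51, 7.79 and 7.22 CPM at 100 µg/mL and 7.55, 8.36 and 8.73 CPM at 500 µg/mL. The groups at 100 and 500 µg/mL overlapped each other and stood above every library of the other groups, of which the highest had 6.66 CPM. At 20 µg/mL the libraries overlapped those of Vehicle. The ratio of means to Vehicle was 1.1 at 20 µg/mL, 1.59 at 100 µg/mL and 1.74 at 500 µg/mL.

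Between 500 and 100 µg/mL of Polygalae the log2 difference was 0.13 for KLHL24 and 0.13 for CCNG2. Per 5-fold step of dose, fitted in the 9 Polygalae libraries, the log2 slope was 0.38 for KLHL24 and 0.33 for CCNG2. The step from 20 to 100 µg/mL thus held most of the difference for both genes.

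Aucklandiae belongs to the same library set as Polygalae but is itself a treatment, so its level is not that of untreated cells of the set. KLHL24 averaged 13.6 ± 0.602 CPM in Polygalae 500 and 7.69 ± 0.364 CPM in Aucklandiae 500 (SD, n = 3 each). CCNG2 averaged 8.22 ± 0.602 CPM in Polygalae 500 and 5.08 ± 0.239 CPM in Aucklandiae 500 (SD, n = 3 each). At 100 µg/mL the log2 difference between Polygalae and Aucklandiae was 0.89 for KLHL24 and 0.57 for CCNG2.

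**Figure D3:**
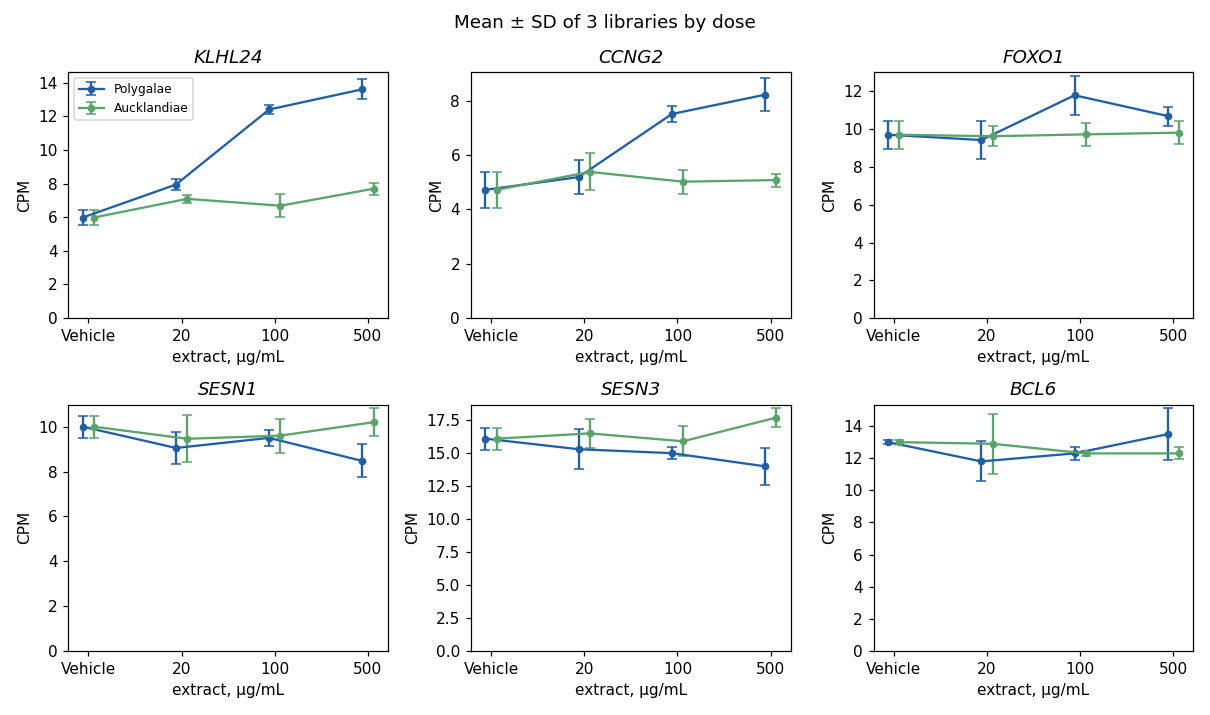
Mean ± SD of 3 libraries in CPM (y axis, from 0) at Vehicle, 20, 100 and 500 µg/mL (x axis) of Polygalae (blue) and Aucklandiae (green) for 6 genes; the Vehicle point is shared. KLHL24 and CCNG2 stand higher with Polygalae at 100 and 500 µg/mL, while FOXO1, SESN1, SESN3 and BCL6 lie closer to Vehicle, with log2 differences from -0.25 to 0.28 in Polygalae 100 and 500.

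Among the 7 other genes, Polygalae 500 gave 2 that fell, SESN1 and SESN3, and 0 that rose. Of all genes tested, 19.9% changed in this comparison, 10.4% upward and 9.48% downward, so 2 of 7 is close to the overall share. SESN1 had 8.95, 7.63 and 8.84 CPM in Polygalae 500, against 9.46, 10.4 and 10.2 CPM in Vehicle cells, without overlap. Its log2 fold change was -0.25 ± 0.083 (SE; adjusted p = 0.026, edgeR).

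SESN3 had 15.4, 12.7 and 13.9 CPM in Polygalae 500, against 16.9, 16.2 and 15.3 CPM in Vehicle cells, and its groups just overlapped. Its log2 fold change was -0.21 ± 0.075 (SE; adjusted p = 0.041, edgeR). Both calls rested on single libraries, and DESeq2 passed 1 of these 2 genes (SESN1 at an adjusted p of 0.049, SESN3 at 0.053). Without Polygalae 500 replicate 2, the lowest of its group for both genes, the log2 fold change was -0.17 for SESN1 (adjusted p = 0.22, edgeR) and -0.13 for SESN3 (adjusted p = 0.31, edgeR). SESN1 was also lost without the low-count filter (adjusted p = 0.065, edgeR) and without Vehicle replicate 2 (adjusted p = 0.11, edgeR) or 3 (adjusted p = 0.071, edgeR). SESN3 was also lost without Vehicle replicate 1 (adjusted p = 0.16, edgeR) or 2 (adjusted p = 0.099, edgeR) and without Polygalae 500 replicate 3 (adjusted p = 0.091, edgeR).

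Against Aucklandiae 500, within the library set, where 15.2% of all genes changed, the same pair of sestrins passed among the 7 genes, with the same Polygalae 500 libraries as before. SESN3 averaged 14.0 ± 1.38 CPM in Polygalae 500 and 17.7 ± 0.695 CPM in Aucklandiae 500 (SD, n = 3 each), a log2 difference of -0.34 ± 0.074 (SE; adjusted p = 0.00043, edgeR). This difference passed in all 13 alternatives, with adjusted p from 0.00012 to 0.021. Only Wortmannin had a higher SESN3 mean than Aucklandiae 500, and Vehicle averaged 16.1 CPM. SESN1 averaged 8.47 ± 0.735 CPM in Polygalae 500 and 10.2 ± 0.629 CPM in Aucklandiae 500 (SD, n = 3 each), a log2 difference of -0.28 (adjusted p = 0.014, edgeR). The SESN1 difference was lost without Polygalae 500 replicate 2 (adjusted p = 0.17, edgeR), without Aucklandiae 500 replicate 3 (adjusted p = 0.079, edgeR) and, narrowly, without Aucklandiae 500 replicate 1 (adjusted p = 0.05, edgeR).

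FOXO1 was the 1 gene of the 7 that changed at Polygalae 100, where 12.8% of all genes changed. It had 11.4, 13 and 11.1 CPM in Polygalae 100, against 8.93, 10.4 and 9.75 CPM in Vehicle cells. Polygalae 100 held the highest FOXO1 level of the 20 groups, and each of its libraries was above all 57 others. The log2 fold change was 0.28 ± 0.077 (SE; adjusted p = 0.0094, edgeR). It was lost without Vehicle replicate 1 (0.22, adjusted p = 0.088, edgeR) or without Polygalae 100 replicate 2 (0.21, adjusted p = 0.10, edgeR).

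Against Aucklandiae 100, where 7.43% of all genes changed, FOXO1 was again the 1 gene of the 7 that passed, with 11.8 ± 1.02 CPM in Polygalae 100 and 9.73 ± 0.611 CPM in Aucklandiae 100 (SD, n = 3 each; log2 difference 0.28, adjusted p = 0.015, edgeR). It was lost there without the low-count filter (adjusted p = 0.059, edgeR), without Polygalae 100 replicate 2 (adjusted p = 0.17, edgeR), without Aucklandiae 100 replicate 1 (adjusted p = 0.089, edgeR) and without Aucklandiae 100 replicate 2 (adjusted p = 0.086, edgeR). At 500 µg/mL FOXO1 had 10.1, 11.1 and 10.8 CPM, and its difference from Vehicle did not pass (adjusted p = 0.24, edgeR). Against the mean of the other 5 extracts, a choice made after seeing the data, FOXO1 was at 0.16 (adjusted p = 0.047, edgeR). That was the 1 pass in 14 alternatives, where adjusted p reached 0.66. The reference holds more libraries than Vehicle, and the share of all genes that passed against it is not given here.

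At Polygalae 20, where 12.1% of all genes changed and which holds both libraries that stood apart, 0 of the 7 genes passed by edgeR, 0 had an unadjusted p under 0.05 and 0 passed by DESeq2. Without Polygalae 20 replicate 2, FOXO3 passed at -0.21 (adjusted p = 0.018, edgeR). Polygalae 500 against Polygalae 100, where 2.24% of all genes changed, and the Polygalae dose slope, with 5.03%, also gave 0 of 7 by edgeR and by DESeq2. The unadjusted p was under 0.05 for 1 gene between the 2 doses and for 0 genes in the slope. FOXO1 was -0.14 between 500 and 100 µg/mL, with a 95% interval from -0.30 to 0.02.

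FOXO4 had its lowest mean of the series in Polygalae 500, at 1.96, 1.71 and 2.0 CPM, against 1.98, 2.29 and 2.64 CPM in Vehicle cells (adjusted p = 0.35, edgeR). The FOXO4 mean was nearly the same in Liriopis 500, at 1.9 CPM against 1.89 CPM in Polygalae 500. PIK3IP1 had 0.839, 0.775 and 0.579 CPM in Polygalae 500, against 0.687, 0.607 and 0.77 CPM in Vehicle cells. BCL6 averaged 13.5 ± 1.61 CPM in Polygalae 500 and 13 ± 0.122 CPM in Vehicle cells (SD, n = 3 each), with a 95% interval of the log2 difference from -0.11 to 0.22. FOXO3 averaged 26.2 ± 1.7 CPM in Polygalae 500 and 25.5 ± 1.18 CPM in Vehicle cells (SD, n = 3 each).

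Polygalae 500 was then set directly against Wortmannin, a comparison in which 44.0% of all genes differed and which spans 2 library sets. Of the 7 genes, 4 were lower in Polygalae 500: SESN3, BCL6, FOXO4 and SESN1. Wortmannin had the highest means of the 20 groups for SESN3, BCL6 and FOXO4. The log2 difference was -0.41 ± 0.073 for SESN3 (SE; adjusted p = 4.5e-06, edgeR) and -0.33 ± 0.079 for BCL6 (SE; adjusted p = 0.00044, edgeR), and both passed in all 13 alternatives. FOXO4 averaged 1.89 ± 0.155 CPM in Polygalae 500 and 2.87 ± 0.134 CPM in Wortmannin (SD, n = 3 each), a log2 difference of -0.61 (adjusted p = 0.0088, edgeR). Without Polygalae 500 replicate 2 the FOXO4 difference was -0.54 (adjusted p = 0.053, edgeR). SESN1 differed by -0.23 (adjusted p = 0.021, edgeR), which was lost without Polygalae 500 replicate 2 (adjusted p = 0.20, edgeR) or Wortmannin replicate 2 (adjusted p = 0.19, edgeR), without the low-count filter (adjusted p = 0.064, edgeR) and with DESeq2 (adjusted p = 0.051). KLHL24 and CCNG2, given without a test, were higher in Polygalae 500 by 0.61 and 0.63 on the log2 scale.

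With the other 5 extracts, 1 of the 9 genes passed in 1 group. Over their 15 comparisons with Vehicle, 1 of 135 tests passed by edgeR, KLHL24 in Aucklandiae 500, where 4.93% of all genes changed. KLHL24 had 7.51, 8.11 and 7.45 CPM in Aucklandiae 500, against 6.14, 6.32 and 5.46 CPM in Vehicle cells, with a log2 difference of 0.37 ± 0.09 (SE, adjusted p = 0.008, edgeR). The Vehicle libraries of this test were part of the contrast on which KLHL24 was chosen. The call was lost without Vehicle replicate 3 (0.31, adjusted p = 0.075, edgeR) or Aucklandiae 500 replicate 2 (0.32, adjusted p = 0.065, edgeR). The 14 other comparisons gave 0 members by edgeR and 0 by DESeq2, with an unadjusted p under 0.05 in 9 tests.

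The share of all genes that changed in those 14 comparisons was 2.99% in Aucklandiae 20 and 2.04% in Aucklandiae 100. It was 0.363%, 0.599% and 1.81% in Zizyphi 20, 100 and 500, and 0.196%, 1.4% and 0.478% in Schisandrae 20, 100 and 500. It was 0.0173%, 0.132% and 0.104% in Longan 20, 100 and 500, and 0.0864%, 0.00576% and 0.00576% in Liriopis 20, 100 and 500. The log2 differences from Vehicle in these 15 groups ran from 0.00 to 0.37 for KLHL24, from -0.11 to 0.32 for CCNG2 and from -0.28 to 0.11 for BCL6. They ran from -0.12 to 0.13 for SESN3, -0.15 to 0.06 for SESN1, -0.11 to 0.10 for FOXO1, -0.14 to 0.03 for FOXO3, -0.28 to 0.19 for FOXO4 and -0.19 to 0.53 for PIK3IP1. For KLHL24, 14 of 15 group means were above Vehicle and 6 of its 15 tests had an unadjusted p under 0.05, and these tests share the 3 Vehicle libraries, which were part of the contrast that chose KLHL24.

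Highest among the other extracts for CCNG2 was Schisandrae 500, with 6.26, 6.64 and 4.61 CPM, against 5.3, 4.86 and 4.0 CPM in Vehicle cells, and the groups overlapped. Within the library set, Schisandrae 500 against Liriopis 500 gave 0 members by edgeR and 0 by DESeq2, where 0.322% of all genes passed the adjusted threshold. In this comparison 4 of the 9 genes had an unadjusted p under 0.05 (edgeR), and the share of all genes at that looser threshold is not given here. CCNG2 was 0.43 higher there on the log2 scale (adjusted p = 0.17, edgeR), BCL6 0.24 higher, KLHL24 0.22 higher and FOXO4 0.48 higher. Zizyphi 500 against Longan 500 gave 0 members by edgeR and 0 by DESeq2 as well (0.213% of all genes changed), with an unadjusted p under 0.05 for 1, KLHL24, at 0.29.

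No tested member changed with dose in any of the 6 extracts, where KLHL24 and CCNG2 were not tested with Polygalae: 0 of 52 slope tests passed by edgeR, 0 by DESeq2, and 2 had an unadjusted p under 0.05. The share of all genes with a slope was 0.967% in Aucklandiae, 0.351% in Zizyphi, 0.0403% in Schisandrae, 0.0345% in Longan and 0.0461% in Liriopis. The 2 slopes were CCNG2 with Schisandrae, at 0.17 per step (adjusted p = 0.68, edgeR), and KLHL24 with Longan, at -0.15 per step (adjusted p = 0.94, edgeR).

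Over the 20 group means of log2 CPM, KLHL24 and CCNG2 had a Pearson correlation of 0.93. Both genes were chosen for being higher with Polygalae, so this value restates their choice. Without Wortmannin and Polygalae 100 and 500 it was 0.68 over 17 groups, which still hold Polygalae 20 and Vehicle. The gene most like KLHL24 was MGAT4B at 0.96 (0.81 over the 17 groups), followed by PPP1R3B and VAT1 at 0.96 (0.62 and 0.7). Parentheses in the next sentences also hold values over the 17 groups. Those most like CCNG2 were CLCN7 and WASHC2A at 0.93 (0.64 and 0.65), followed by KLHL24. For BCL6 they were TMCC1, VIPR1 and TRAK1 at 0.87, 0.87 and 0.86 (0.69, 0.67 and 0.58). For SESN3 they were NBEAL2, PLCXD3 and CDH1 at 0.89, 0.89 and 0.88 (0.73, 0.77 and 0.78). For FOXO1 they were FNDC3A, CHP1 and ST3GAL1 at 0.86, 0.86 and 0.84 (0.48, 0.47 and 0.74). For FOXO3 they were GK5, ZFYVE16 and SNRPA1-DT at 0.83, 0.81 and 0.80 (0.77, 0.74 and 0.75). For SESN1 they were NOTCH1, ADD1 and CDK13 at 0.76, 0.74 and 0.72 (0.73, 0.58 and 0.76). For FOXO4 the first was RALGPS1 at 0.78 (0.68), and for PIK3IP1 ARVCF at 0.78 (0.78). Group means share their libraries' set and depth, so these are descriptions.

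Of 6 relatives of the members tested, 1 rose and 2 fell in Wortmannin (median -0.054), and 1 rose and 1 fell in Polygalae 500 (median -0.012). Of all genes tested, 37.4% changed in Wortmannin and 19.9% in Polygalae 500. SESN2, the remaining sestrin, fell in both treatments, with 10.6, 10.8 and 10.2 CPM in Wortmannin cells and 9.51, 8.85 and 8.84 CPM in Polygalae 500, against 14.5, 15.0 and 14.3 CPM in Vehicle cells. Its log2 fold change was -0.47 in Wortmannin (adjusted p = 1.9e-08, edgeR) and -0.69 in Polygalae 500 (adjusted p = 4.5e-12, edgeR). CCNG1, the cyclin most like CCNG2, averaged 76.2 ± 1.14 CPM in Wortmannin cells, where its log2 fold change was -0.24 (adjusted p = 0.00013, edgeR). It averaged 105 ± 2.64 CPM in Polygalae 500, where it rose by 0.21 (adjusted p = 0.0013, edgeR), against 90.2 ± 3.86 CPM in Vehicle cells (SD, n = 3 each). FOXO6 averaged 0.761 CPM in Wortmannin cells and 0.546 CPM in Polygalae 500, against 0.608 CPM in Vehicle cells, and did not pass in either. KLHL23 was at 0.14 in Wortmannin (adjusted p = 0.044, edgeR), a call lost with DESeq2's size factors, without the filter, with DESeq2's test and without Vehicle replicate 2 or Wortmannin replicate 2 or 3, and CCNI did not pass in either comparison with Vehicle.

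Other known FOXO targets were taken from 4 lists, and each list's count is set beside the share of all genes that changed, 37.4% in Wortmannin and 19.9% in Polygalae 500. The lists were chosen with earlier results of these data known, and SESN2 is in 3 of the lists used. Counts here and below are over the listed genes that were tested. The list of cell cycle and stress targets held 16 genes, of which all but TXNIP were tested. Of these 15 targets, 3 rose, 2 fell and 10 did not pass in Wortmannin cells (median log2 fold change 0.03, against 0.008 for all genes). Those that rose were YPEL3, BTG1 and RBL2, a growth arrest gene, an antiproliferative gene and a pocket protein that holds back cell cycle genes. BTG1 averaged 68.0 ± 1.28 CPM in Wortmannin cells and 57.0 ± 0.943 CPM in Vehicle cells (SD, n = 3 each). GADD45B, a stress sensor, and SESN2 fell.

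In Polygalae 500, 5 of these 15 rose, 4 fell and 6 did not pass (median 0.015, against 0.001 for all genes). KLF2, a transcription factor of quiescence, had 9.09, 9.14 and 9.1 CPM in Polygalae 500, against 5.46, 6.32 and 6.53 CPM in Vehicle cells, a log2 fold change of 0.57 (adjusted p = 1.1e-05, edgeR). BTG1 rose by 0.27 and RBL2 by 0.18, while GADD45B was at -0.53 and GADD45A at -0.29. Of 5 cell death targets, 0 rose and 1 fell in Wortmannin, PMAIP1 at -0.23, and 0 rose and 2 fell in Polygalae 500, PMAIP1 at -0.32 and BCL2L11 at -0.20, while the list medians were above 0 (0.051 in Wortmannin and 0.092 in Polygalae 500). PMAIP1 and BCL2L11 encode BH3-only proteins that promote cell death.

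Of 8 targets in growth factor signalling, 4 rose and 1 fell in Wortmannin cells (median 0.11), whereas 1 rose and 1 fell in Polygalae 500 (median 0.0084). ERBB3, a receptor that couples to PI3K, had 11.6, 11.7 and 11.2 CPM in Wortmannin cells, against 6.63, 7.25 and 7.88 CPM in Vehicle cells, a log2 fold change of 0.66 (adjusted p = 1.3e-06, edgeR). The insulin receptor gene INSR rose by 0.30 and its adaptor gene IRS2 by 0.17. EIF4EBP1, a translation repressor under mTORC1, was at -0.69 in Wortmannin (adjusted p = 1.1e-12, edgeR) and at -0.33 in Polygalae 500 (adjusted p = 6.6e-05, edgeR). RICTOR, a subunit of mTORC2, averaged 112 ± 2.85 CPM in Polygalae 500 and 84.3 ± 1.84 CPM in Vehicle cells (SD, n = 3 each) and rose by 0.41.

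Of 9 targets in metabolism and proteolysis, 2 rose and 2 fell in Wortmannin cells (median 0.031), and 4 rose and 1 fell in Polygalae 500 (median 0.12). PDK4, a kinase that shuts off pyruvate dehydrogenase, had 49.2, 47.3 and 48.1 CPM in Wortmannin cells and 39.6, 42.5 and 45.4 CPM in Polygalae 500, against 33.7, 33.3 and 34.2 CPM in Vehicle cells. Its log2 fold change was 0.52 in Wortmannin (adjusted p = 5.8e-05, edgeR) and 0.33 in Polygalae 500 (adjusted p = 0.019, edgeR). FBXO32, a ubiquitin ligase gene of muscle wasting, rose by 0.50 in Polygalae 500. The autophagy gene MAP1LC3B was at -0.11 in Wortmannin and rose by 0.25 in Polygalae 500, and ULK1, which starts autophagy, was at -0.11 in Wortmannin and -0.24 in Polygalae 500. PPARGC1A, named though it was below 1 CPM, averaged 0.287 CPM in Wortmannin cells and 0.393 CPM in Polygalae 500, against 0.0846 CPM in Vehicle cells, and passed in both.

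Of 31 genes of PI3K and AKT signalling, 6 rose and 8 fell in Wortmannin cells (median -0.023), where 37.4% of all genes changed, and 4 rose and 3 fell in Polygalae 500 (median 0.0017), where 19.9% did. Both counts are near those shares. INPP4B, a phosphatase of PI3K lipids, averaged 25.0 ± 1.77 CPM in Wortmannin cells and 16.1 ± 1.52 CPM in Vehicle cells (SD, n = 3 each), a log2 fold change of 0.64 (adjusted p = 8.6e-11, edgeR). The insulin receptor substrate IRS1 rose by 0.40 and the PI3K regulatory subunit PIK3R2 by 0.26 in Wortmannin. Among those that fell there, RHEB, the GTPase that activates mTORC1, was at -0.26 (adjusted p = 9.8e-07, edgeR), the mTOR complex subunit MLST8 at -0.25 and the kinase SGK1 at -0.21. In Polygalae 500, TSC1, which restrains mTORC1, rose by 0.35, MLST8 by 0.20 and PIK3R4 by 0.19, while TSC2, the partner of TSC1, and the PI3K subunit PIK3R1 were at -0.20 and the phosphatase PHLPP1 was at -0.15.

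Of 25 genes whose products modify, bind or move FOXO proteins, 1 rose and 15 fell in Wortmannin cells (median -0.16), and 4 rose and 10 fell in Polygalae 500 (median -0.088). The share of all genes that fell was 19.4% in Wortmannin and 9.48% in Polygalae 500. FOXM1, a forkhead factor of dividing cells that competes for FOXO sites, had 163, 162 and 163 CPM in Wortmannin cells, against 259, 258 and 259 CPM in Vehicle cells, a log2 fold change of -0.67 (adjusted p = 2e-23, edgeR). PRMT1, an arginine methyltransferase that methylates FOXO1, was at -0.45 and the 14-3-3 gene YWHAE at -0.33 in Wortmannin. In Polygalae 500, MDM2 was at -0.23 and the acetyltransferase gene CREBBP at -0.26. The deacetylase gene SIRT2 rose by 0.17 in Wortmannin and by 0.36 in Polygalae 500.

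Sestrins act through the GATOR complexes on the Rag GTPases that place mTORC1 on the lysosome. Of 18 genes of this branch, 2 rose and 8 fell in Wortmannin cells (median -0.089), and 5 rose and 2 fell in Polygalae 500 (median 0.024). Of all genes tested, 18.0% rose and 19.4% fell in Wortmannin, and 10.4% rose and 9.48% fell in Polygalae 500. RRAGD, a Rag GTPase, had 8.3, 7.63 and 8.26 CPM in Polygalae 500 and 2.42, 2.96 and 2.83 CPM in Wortmannin cells, against 1.37, 2.18 and 1.61 CPM in Vehicle cells. It rose in both, by 2.21 in Polygalae 500 (adjusted p = 3.7e-20, edgeR) and 0.66 in Wortmannin (adjusted p = 0.00035, edgeR). RRAGC had 46.3, 45.5 and 49.2 CPM in Polygalae 500, against 24.1, 22.1 and 22.2 CPM in Vehicle cells (log2 fold change 1.04, adjusted p = 2.7e-24, edgeR), and CASTOR1, an arginine sensor, rose by 0.67. In Wortmannin cells RRAGC fell, at -0.28 (adjusted p = 6.4e-05, edgeR), as did the GATOR2 subunit SEC13 at -0.35 and CASTOR2 at -0.30, while RRAGB rose by 0.35.

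Of 7 genes for BCL6 corepressors and KLHL24 partners, 0 rose and 5 fell in each treatment (median -0.16 in Wortmannin and -0.14 in Polygalae 500). Of all genes tested, 19.4% fell in Wortmannin and 9.48% in Polygalae 500. The corepressor BCOR was at -0.20 in Wortmannin and -0.31 in Polygalae 500, the deacetylase HDAC3 at -0.25 in Wortmannin and the ubiquitin ligase scaffold CUL3 at -0.17 in Wortmannin.

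**Figure D4:**
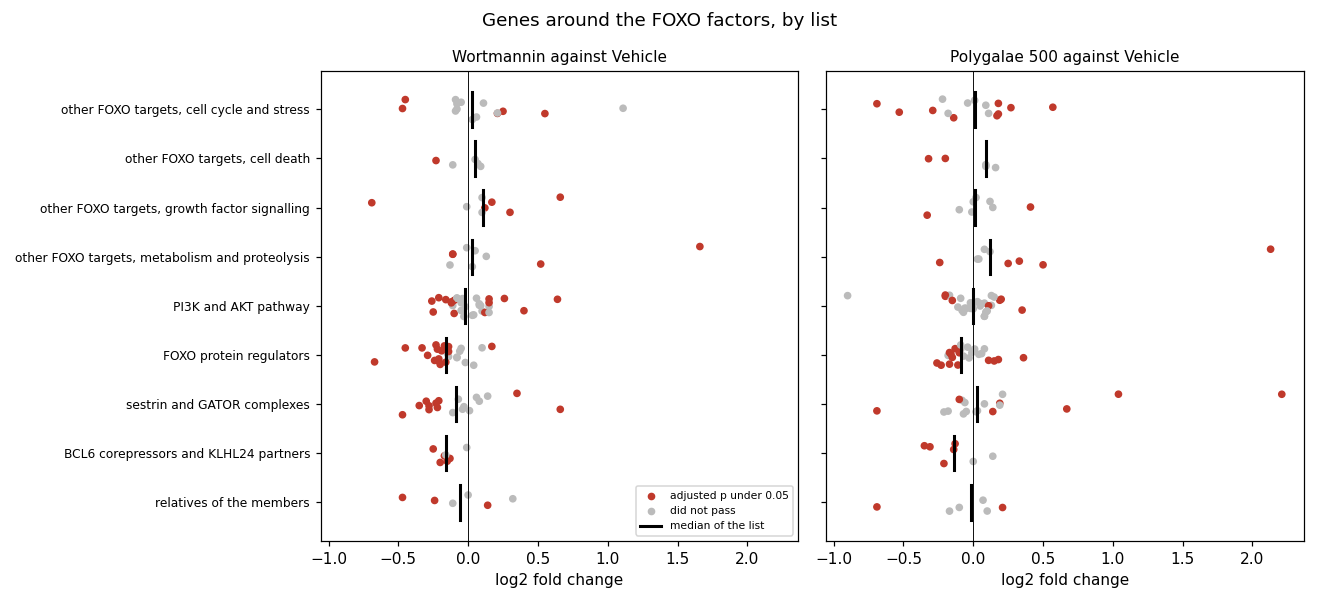
Log2 fold change against Vehicle (x axis) of each tested gene of 9 lists (y axis) in Wortmannin and Polygalae 500; red points passed, grey points did not, and black bars are list medians. FOXO protein regulators have medians of -0.16 in Wortmannin and -0.088 in Polygalae 500, and RRAGD and PPARGC1A lie farthest right in Polygalae 500.

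Other marks moved with the same treatments. Transcripts of 9 replication-dependent histone genes, used as a sign of RNA selection and cell division, summed to 37.4 to 39.7 CPM in Wortmannin libraries and 23.5 to 23.8 CPM in Polygalae 500, against 28.5 to 30.2 CPM in Vehicle. The 5 alveolar type 2 markers summed to 55.5 to 56.8 CPM in Wortmannin and 26.8 to 28.8 CPM in Polygalae 500, against 26.4 to 26.7 CPM in Vehicle, of which ABCA3 made up nearly all. The 5 epithelial markers summed to 6260 to 6360 CPM in Wortmannin and 5210 to 5420 CPM in Polygalae 500, against 6220 to 6560 CPM in Vehicle, and the 3 fibroblast markers summed to 32.2 to 33.8 CPM in Wortmannin and 22.4 to 29.6 CPM in Polygalae 500, against 33.1 to 33.4 CPM in Vehicle. Of the 7 histone genes tested, 4 rose and 0 fell in Wortmannin, where 18.0% of all genes rose and 19.4% fell. In Polygalae 500, 0 of them rose and 3 fell, where 10.4% of all genes rose and 9.48% fell. The part of these marks in the results above was not tested.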

How the data were processed

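RNA of 60 A549 libraries (20 groups of 3) was analysed from 1 table of expected counts that the authors deposited, which are RSEM estimates per gene without depth normalization. Named in the submitters' processing notes are RSEM 1.3.3 and STAR 2.7.3a, Trim Galore 0.6.5 and FastQC 0.11.9, with the build GRCh38. Per the labels' protocols, a strand-specific kit and paired-end reads of 100 bases were used. Annotation release and strand setting: not given in the sources used here. Values of overlapping or near-identical genes are uncertain. Of the values, 10.7% were not whole and were rounded.

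A low-count filter (filterByExpr) was applied, libraries were scaled with TMM, and 1 robust quasi-likelihood model with a mean per group was fitted to all libraries (edgeR 4.0.16, limma 3.58.1, R 4.3.3). Dose slopes used the 9 libraries of an extract, with 20, 100 and 500 µg/mL as equal steps. P-values were two-sided and adjusted over all 17368 genes tested. CPM values use TMM-scaled depth and errors are the SD of 3 libraries or the SE of the model. The edgeR procedure was tried on simulated counts for Wortmannin against Vehicle only, with the spread taken from the trend over genes. The other comparisons and the dose slopes were not simulated, and the outcome is not given here. Alternatives were DESeq2 1.42.0 (test and size factors), no filter, unrounded counts, only the libraries compared, a replicate block, each library left out in turn and, added after seeing the data, no outlying libraries and the other extracts as reference. The 9 genes and the lists were chosen with earlier results of these data known. List genes were named by size of change (at most 3 in each direction among those that passed, with at least 1 CPM), and the 3 genes of most similar profile were given for each member where named. Promoter windows are RefSeq's. No deposited column was left out. The text gives only some of the list genes that this rule selects, and the others are not reported here.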

Additional observations from a re-analysis of the deposited data

Results flagged for a closer look

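SESN3 rose in Wortmannin and fell in Polygalae 500, and the direct difference of Polygalae 500 minus Wortmannin was -0.41 on the log2 scale (adjusted p = 4.5e-06, edgeR); the 2 calls against Vehicle share the Vehicle libraries.

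The same opposite directions, each with a direct difference that passed in edgeR, held for 8 other genes named from the lists. The share of all genes with such opposite directions is not given here, so this count is a description. Of all genes tested, 37.4% changed in Wortmannin, 19.9% changed in Polygalae 500 and 44.0% differed between these treatments. The difference of Polygalae 500 minus Wortmannin was 1.32 for RRAGC, 0.46 for CCNG1, 0.44 for MLST8, 0.39 for SFN and 0.36 for MAP1LC3B. It was -0.35 for TSC2, and for the histone genes -1.03 for H1-2 and -0.74 for H2AC6.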

How the results depend on the processing

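No call of a single member reversed: of 188 recomputed values of 14 calls, 161 stayed past the threshold and 27 did not. Of 342 recomputed counts of members, 319 stayed within 1.5 times and 23 did not; the cause was not tested. With 1 library left out, the remaining 2 of its group were taken to vary like the other groups. Over single libraries left out, the members that changed numbered 0 to 2 in Polygalae 500, 0 to 1 in Polygalae 100, 0 to 1 in Polygalae 20, 0 to 1 in Aucklandiae 500 and 0 to 1 in Zizyphi 500 (KLHL24), each against Vehicle. They numbered 1 to 2 in Polygalae 500 against Aucklandiae 500, 0 to 1 in Polygalae 100 against Aucklandiae 100 and 2 to 4 in Polygalae 500 against Wortmannin. Without the filter, 1 member changed in Polygalae 500 against Vehicle and 0 in Polygalae 100 against Aucklandiae 100, with more genes tested. DESeq2 gave 1 in Polygalae 500 against Vehicle. The 6 libraries alone gave 1 in Longan 100 (BCL6). The other extracts as reference gave 5 in Wortmannin, and this reference holds more libraries than Vehicle. The share of all genes that passed under each of these alternatives is not given here. Whether the member counts moved apart from that share was not tested.

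Same-numbered replicates did not deviate together (correlations -0.055 to 0.09), so the numbers were not taken as pairs. With the replicate block, the members that changed numbered 3 in Wortmannin, 2 in Polygalae 500 and 1 in Polygalae 100, as without it, and the block changed no other member count. Of 560 recomputed list counts, 509 stayed within 1.5 times.

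Depth limits PIK3IP1 and FOXO4, whose 95% intervals are the widest. With 3 libraries a group, the calls of SESN1, and those of SESN3 against Vehicle, were lost when single libraries were left out, whereas SESN3 in Polygalae 500 passed in all 13 alternatives against Aucklandiae 500 and against Wortmannin. These references, Aucklandiae 500 and Wortmannin, had the highest SESN3 means of the 20 groups, 17.7 and 18.6 CPM, against 16.1 CPM in Vehicle.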
